A study of Sus scrofa with 2 samples.

Results

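The genes described here are the collagens, laminins and integrins of pig endometrium, chosen by gene symbol alone: numbered collagen chains, laminin chains, integrin-named genes and fibronectin. The rule found 31 of the 26881 features, namely 17 collagen genes, 3 laminin genes and 11 genes with an integrin symbol, and no feature with the fibronectin symbol. Of the 11, 9 encode integrin subunits, while ITGB1BP1 and ITGB1BP2 encode proteins named after an integrin. A symbol was given for 10753 features, so the list is part of the family only, and chains such as COL4A1 or LAMA5 are not analysed here.

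Single cells were measured with 10x Genomics 3' chemistry, which counts each captured transcript by a unique molecular identifier (UMI). The embryo loss library, EL, came from a Yorkshire sow of 3 years with an earlier abortion and later breeding that failed. The library of successful implantation, EIS, came from a Yorkshire sow of 3 years on day 30 after insemination. The stage of the EL sow at sampling is not given. With a single sow and library on each side, differences between sows, stages, pregnancies and libraries cannot be told apart, there is no test, and every interval (95%) covers counting error only. The tissue was digested with collagenase and protease before capture.

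Collagens are triple helices: fibrillar chains form the cables of the stroma, and type IV chains form the mesh of the basement membrane, whose other main polymer is laminin. Integrins are paired alpha and beta receptors that tie cells to these proteins. The pig conceptus attaches to the uterine surface without invading it, and integrins at that surface are known for their part in attachment.

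After filtering, 9864 EL cells (median 2338.5 UMIs) and 8068 EIS cells (median 2252 UMIs) remained, and the members took 0.0727% and 0.998% of their UMIs. Cells were gated into classes by marker genes, none of them a member. The epithelial class held 8707 EL and 2550 EIS cells. The trophoblast-like class held 2150 EIS cells and 0 of 9864 EL cells, which allows a share of up to 0.0374%. The mesenchymal class held 16 EL cells (36576 UMIs) against 317 EIS cells, and the endothelial class 34 EL cells (82074 UMIs) against 185 EIS cells, so the EL values of both rest on few cells. The immune class, with 299 EL and 825 EIS cells, gave the level of RNA from other cells, since immune cells are not a known source of interstitial collagen. Of 19 measured mesenchymal markers, 12 were detected in EL and 18 in EIS mesenchymal cells. Of 17 measured endothelial markers, 16 were detected in the endothelial cells of each library, with VWF at 0 in both. An entry named KRT8 was at 0 in epithelial cells of both libraries, while 12 entries of the 12 measured epithelial symbols were detected. A symbol thus had more than 1 entry, and which one was not examined. The gate passed 128 further EL cells and 1128 EIS cells for several classes at once, and these were left out.

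The EIS epithelial class was mixed. Of its 2550 cells, 1619 lay in clusters (made without the member genes) whose summed markers were also epithelial, 669 in mesenchymal clusters, 196 in trophoblast-like clusters and 61 in endothelial clusters. The 6 fibrillar collagens summed to 126 UMIs per 1000000 of the class total (CPM) in the first set and to 7936 CPM in the second. In EL, 8612 of 8707 epithelial cells lay in epithelial clusters. Values for cells that also lay in a cluster of their own class are therefore given beside several epithelial results, but not for the lists of related genes.

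Member levels differed between classes. In EIS, 8 of 26 measured members were at least 2-fold higher in mesenchymal cells than in each of the epithelial, trophoblast-like and endothelial classes, immune cells not being compared, against 6.69% of all genes. These were COL1A1, COL1A2, COL3A1, COL5A1, COL5A2, COL6A1, COL11A1 and COL12A1. In EL, mesenchymal cells led for 9 of 23 members (10.4% of all genes), with COL4A2 and LAMB2 in place of COL11A1. LAMB2 led there on 6 UMIs against 5 in endothelial cells, and COL12A1 on 2 UMIs. COL11A1 had 0 UMIs in EL mesenchymal cells, so the change of genes between libraries is not read. Endothelial cells led for 4 members in EL (10.5% of all genes), ITGA5, ITGB1, ITGB5 and LAMC1, and for 2 in EIS (12.5%), COL8A1 and COL23A1. Epithelial cells led for 5 members in EL (38.2% of all genes) and for 0 in EIS (4.69%). The EL count is not read, since several of the 5 stood at a few CPM in epithelial cells and had 0 UMIs in the EL mesenchymal and endothelial classes, where 3 UMIs make 82 and 36.6 CPM. Trophoblast-like cells led for 2 in EIS (5.89%), COL9A2 and ITGAM, but ITGAM was higher in EIS immune cells, at 65.6 CPM, than in trophoblast-like cells, at 7.12 CPM.

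**Figure D1:**
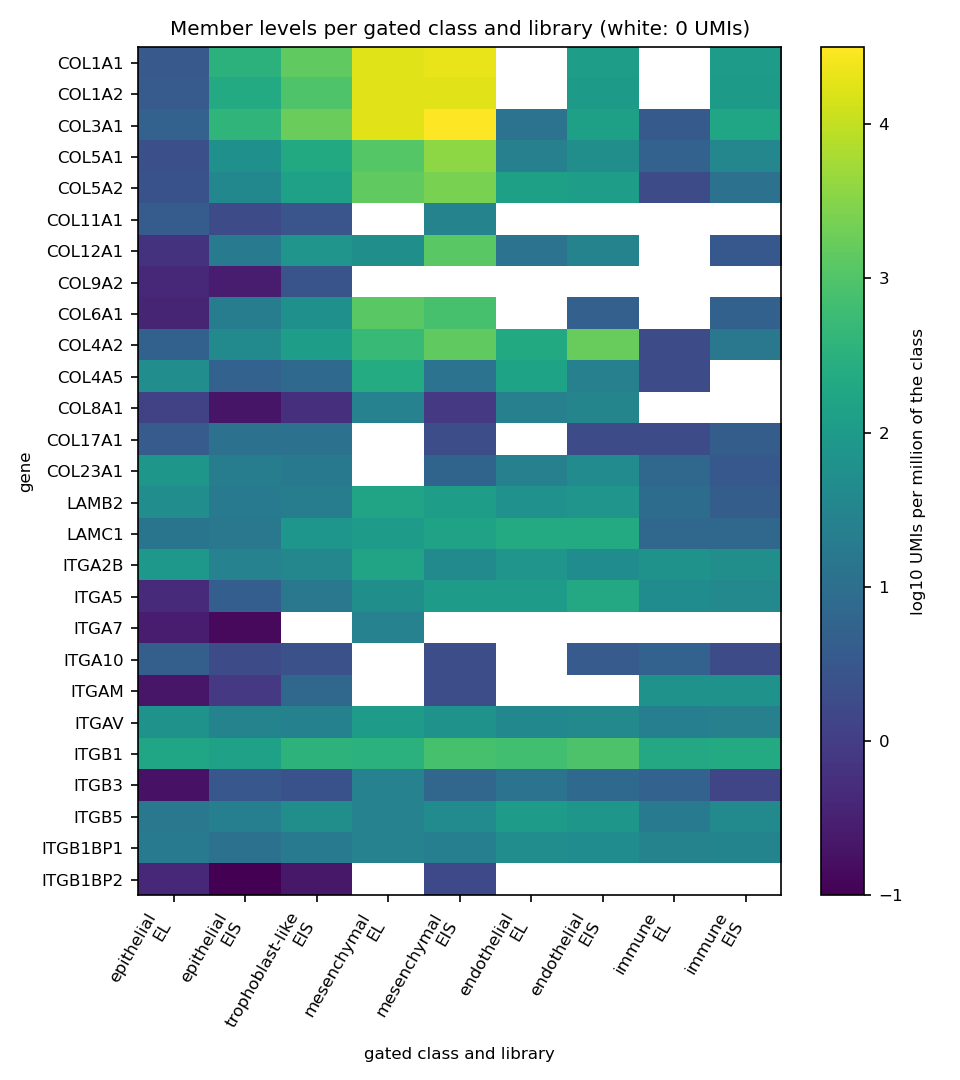
Levels of 27 members in each gated class and library on a log10 colour scale of CPM; white marks 0 UMIs. COL1A1, COL1A2 and COL3A1 lie between 16924 and 30855 CPM in mesenchymal cells, and ITGAM is highest in immune cells.

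Between libraries, members with at least 20 UMIs in a class were counted, and called where the ratio passed 2-fold. In epithelial cells 8 of 26 members were higher in EL (42.6% of 15844 genes) and 13 in EIS (9.18%). In cells of epithelial clusters the counts were 8 and 11 of 24, against 46.5% and 6.86% of genes. In mesenchymal cells 2 of 17 members were higher in EL (38.5% of 6112 genes) and 4 in EIS (6.35%). In endothelial cells 1 of 18 was higher in EL (10.2% of 6693 genes) and 6 in EIS (15.2%), 2 of them as bounds. In the immune cells 0 of 13 were higher in EL (3.79% of 9119 genes) and 7 in EIS (8.09%), all 5 measured fibrillar collagens among the 7.

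The scale of the epithelial comparison was shifted. Its median gene stood at 0.86 on the log2 scale of EL over EIS. Without 5 genes that each took over 1% of a library, SLPI, UABP-2, ACP5 and TIMP2 among them, it stood at 0.13. On that scale 3 members were higher in EL (15.6% of genes) and 14 in EIS (15.1%). The mesenchymal median gene stood at 0.67 (-0.31 with TMM scaling factors). Mesenchymal genes whose 0 EL UMIs allowed no ratio are not in this median or in the shares. With 50 UMIs asked of a gene, the median was 0.33 and 26.7% of genes were higher in EL. With 1 UMI asked, these were 0.96 and 49.2%, so both moved with the count asked of a gene. With TMM 1 mesenchymal member was higher in EL (10.6% of genes) and 10 in EIS (24.9%). The endothelial median gene stood at -0.05 (-0.26 with TMM).

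**Figure D2:**
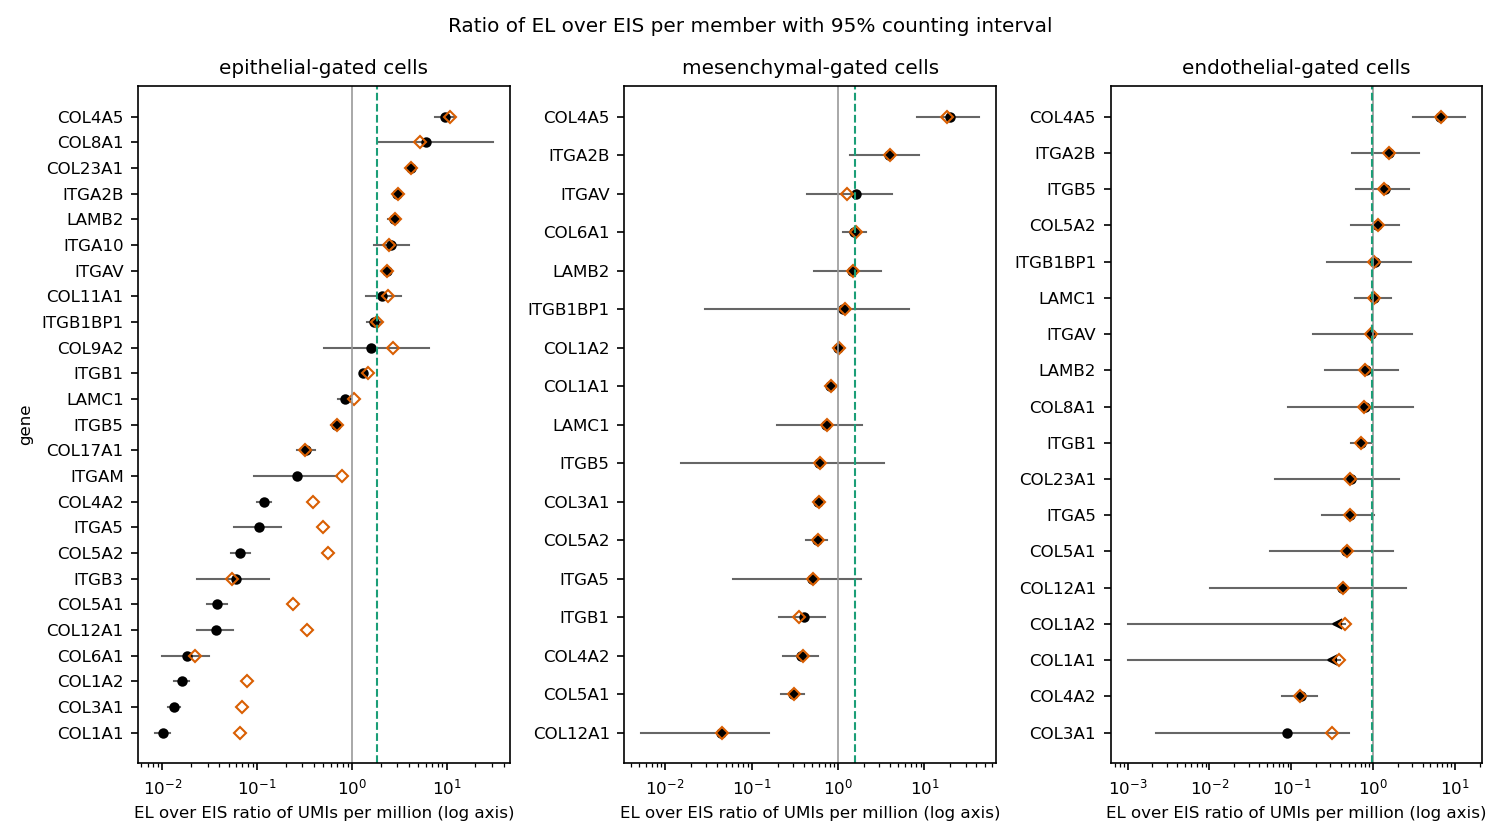
EL over EIS for measured members in 3 gated classes, on a log axis, with 95% counting intervals; triangles are bounds against 3 UMIs, open diamonds are cells that also lie in a cluster of the same class, the grey line is equality and the dashed line the median gene. COL4A5 has the highest ratio in each panel, and the diamonds of COL1A1, COL1A2 and COL3A1 lie to the right of the circles in epithelial cells.

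The fibrillar collagens were abundant in the mesenchymal cells of both libraries. COL1A2, a chain of type I collagen, was found at 17963 (EL) and 18197 CPM (EIS), a ratio of 0.987 (0.913 to 1.07). COL1A1, the other chain of type I, was found at 16924 (EL) and 20888 CPM (EIS) (1.23-fold higher in EIS, 1.14 to 1.34). COL3A1, the type III chain of extensible tissue, was found at 18154 (EL) and 30855 CPM (EIS) (1.7-fold higher in EIS, 1.57 to 1.84). Type V collagen, which helps to start fibrils, was lower in EL in both chains that were measured. COL5A1 was found at 1121 (EL) and 3719.8 CPM (EIS) (3.32-fold higher in EIS, 2.44 to 4.63) and COL5A2 at 1422 (EL) and 2512 CPM (EIS) (1.77-fold higher in EIS, 1.35 to 2.37). COL11A1, a chain of type XI collagen, had 0 UMIs in EL and 29.2 CPM in EIS, and the EL depth allows no ratio. Of these genes only COL5A1 passed 2-fold, and the 6 together reached 55583 CPM in EL and 76201 CPM in EIS.

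The mesenchymal classes were made of different clusters. In EIS, 143 of 317 cells lay in a cluster led by ACTG2 and ACTA2, genes of contractile cells, and 136 in a cluster led by APOE and SPARC. Of the 16 EL cells, 13 lay in a pair of clusters with CYP1B1 and RORB among their leading genes, which held 31 EIS cells. In that pair the mesenchymal markers came to 8816 (EL) and 23924 CPM (EIS). There COL3A1 turned to 19231 (EL) and 15829 CPM (EIS) (1.21-fold higher in EL, 1.12 to 1.32) and COL5A2 to 1513 (EL) and 659 CPM (EIS) (2.29-fold higher in EL, 1.64 to 3.17). COL1A1 kept its direction at 17922 (EL) and 27801 CPM (EIS) (1.55-fold higher in EIS, 1.43 to 1.69). COL5A1 was within counting error at 1193 (EL) and 1487 CPM (EIS) (1.25-fold higher in EIS, 0.899 to 1.77). The EIS side of the type III and type V differences thus moved with the cluster mix.

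COL12A1, a fibril-associated collagen that decorates type I fibrils, had the lowest mesenchymal ratio. It was found at 54.7 (EL) and 1249 CPM (EIS) (22.8-fold higher in EIS, 6.32 to 189), on 2 EL UMIs. In the CYP1B1 and RORB clusters it was found at 58.2 (EL) and 262 CPM (EIS) (4.5-fold higher in EIS, 1.19 to 38.1). COL6A1, a chain of the beaded filaments around cells, was found at 1230.3 (EL) and 794 CPM (EIS) (1.55-fold higher in EL, 1.13 to 2.08). This was close to the median gene of the class at 20 UMIs per gene, a median that moved with the count asked. With TMM factors, and in the CYP1B1 and RORB clusters (1309 (EL) and 1679 CPM (EIS), 1.28-fold higher in EIS, 0.939 to 1.79), its direction turned. COL9A2, the other fibril-associated member, had 0 UMIs in the mesenchymal cells of both libraries.

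In the epithelial class 5 of the 6 fibrillar collagens were low in EL and higher in EIS. COL1A1 was found at 3.37 (EL) and 334 CPM (EIS) (99.1-fold higher in EIS, 83 to 119), COL1A2 at 3.75 (EL) and 235 CPM (EIS) (62.7-fold higher in EIS, 52.9 to 74.8) and COL3A1 at 5.34 (EL) and 402 CPM (EIS) (75.2-fold higher in EIS, 65.2 to 87). In cells of epithelial clusters COL1A1 was found at 1.9 (EL) and 29.1 CPM (EIS) (15.3-fold higher in EIS, 11.8 to 20.1), COL1A2 at 2.12 (EL) and 26.8 CPM (EIS) (12.7-fold higher in EIS, 9.86 to 16.4) and COL3A1 at 3.88 (EL) and 55.8 CPM (EIS) (14.4-fold higher in EIS, 12 to 17.3). EIS immune cells held 109, 99.6 and 184 CPM of the same genes, less than the whole epithelial class. EIS immune cells that also lay in immune clusters held 63.7, 75 and 133 CPM, more than the EIS cells of epithelial clusters. COL5A2 was 15-fold higher in EIS, 12 to 18.9, by the gate and 1.77-fold higher in EIS, 1.24 to 2.52, in epithelial clusters. COL5A1 was 26.4-fold higher in EIS, 20.9 to 33.6, and 4.24-fold higher in EIS, 3.11 to 5.79, in the same order, and COL12A1 27.3-fold higher in EIS, 17.9 to 43.3, and 2.95-fold higher in EIS, 1.6 to 5.42. COL11A1 went the other way, at 3.99 (EL) and 1.91 CPM (EIS) (2.09-fold higher in EL, 1.39 to 3.26; 1.26-fold without the abundant genes), and did not differ beyond counting error in the cluster of ciliated cells led by TPPP3, at 5.74 (EL) and 8.07 CPM (EIS) (1.41-fold higher in EIS, 0.707 to 2.64). COL6A1 was found at 0.378 (EL) and 20.5 CPM (EIS) (54.3-fold higher in EIS, 31.9 to 101), against 5.2 CPM in EIS immune cells. EIS cells of epithelial clusters held 11.2 CPM of COL6A1, against 4.41 CPM in immune cells of immune clusters. The EIS epithelial level of COL6A1 was highest in small clusters, with 168 CPM in the one led by THBS1 and 93 CPM in the one led by TMEM213.

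Fibrillar collagen in trophoblast-like cells moved with mesenchymal markers. The 6 genes summed to 4531 CPM (4486 to 4576) there, with COL1A1 at 1434, COL1A2 at 989.7 and COL3A1 at 1745 CPM. The mesenchymal markers summed to 1033 CPM, with 18 of 19 detected and ASPN at 0, against 16628 CPM in EIS mesenchymal cells. Fibrillar UMIs per marker UMI were 4.39 in trophoblast-like, 4.58 in mesenchymal, 4.13 in immune, 3.12 in epithelial and 0.617 in endothelial cells of EIS. COL1A2 per COL3A1 UMI was 0.567, 0.59 and 0.541 in the first 3 of these classes. In the same order COL1A1 per COL3A1 UMI was 0.821, 0.677 and 0.59, and COL4A2 per COL3A1 UMI 0.071, 0.0472 and 0.0872. The epithelial value of 3.12 fibrillar UMIs per marker UMI covers the whole gated class. In EIS cells of epithelial clusters the fibrillar sum was 126 CPM against a marker sum of 179 CPM. In the 462 trophoblast-like cells with no mesenchymal marker UMI the fibrillar sum was 1287 CPM, and in the 1688 others 4979 CPM. COL3A1 also varied between trophoblast-like clusters, from 2194 CPM in the one led by SMPDL3A and PAG6 to 511 CPM in the DPPA5-led one and 204 CPM in the one led by SMPDL3A and CHGA. A COL3A1 UMI was found in 64.9% of trophoblast-like cells thinned to 1000 UMIs (80.6% unthinned), against 12.2% of EIS immune cells (26.4%). The part of mesenchymal RNA in these levels was not tested.

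**Figure D3:**
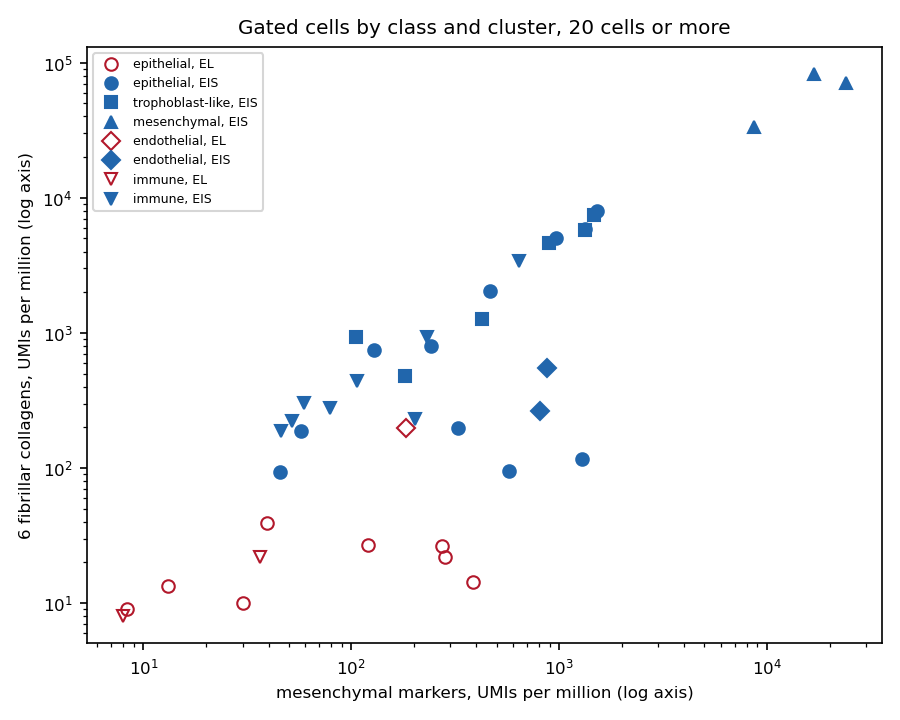
Summed CPM of the 6 fibrillar collagens against summed CPM of 19 mesenchymal markers, both on log axes, for each class and cluster with at least 20 gated cells; open red points are EL and filled blue points EIS. Fibrillar UMIs per marker UMI are 4.58 over EIS mesenchymal and 0.617 over EIS endothelial cells; points of a library share its free RNA.

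The basement membrane collagens went opposite ways. COL4A2, a chain of the common type IV network, was found at 219 (EL) and 1689.9 CPM (EIS) in endothelial cells (7.71-fold higher in EIS, 4.86 to 13). In the cluster led by AQP1, with PLVAP among its leading genes (10 EL and 146 EIS cells), it was found at 334 (EL) and 2229 CPM (EIS) (6.67-fold higher in EIS, 2.85 to 20.6). In the cluster led by MMRN1, with LYVE1, genes of lymphatic vessels (21 EL and 26 EIS cells), it was found at 199 (EL) and 456 CPM (EIS) (2.29-fold higher in EIS, 1.29 to 4.42). A COL4A2 UMI was found in 22.7% of 22 EL and 64.2% of 151 EIS endothelial cells thinned to 1000 UMIs (32.4% and 85.4% unthinned), against 1.34% of EIS immune cells. Thinning left out 12 EL and 34 EIS endothelial cells. Mesenchymal cells held 547 (EL) and 1456 CPM (EIS) (2.66-fold higher in EIS, 1.72 to 4.36), which fell within counting error in the CYP1B1 and RORB clusters (1.53-fold higher in EIS, 0.961 to 2.56). Epithelial cells held 5.13 (EL) and 43.5 CPM (EIS), against 16.1 CPM in EIS immune cells. Among EIS cells that also lay in a cluster of their own class, epithelial cells held 13 CPM and immune cells 8.82 CPM. Among the fibrillar collagens of endothelial cells COL3A1 was found at 12.2 (EL) and 136 CPM (EIS), on 1 EL UMI, and COL1A1 and COL1A2 had 0 EL UMIs. COL5A2 did not differ beyond counting error there, at 134 (EL) and 120.4 CPM (EIS) (1.11-fold higher in EL, 0.542 to 2.06), nor did COL5A1, at 24.4 (EL) and 52.4 CPM (EIS) (2.15-fold higher in EIS, 0.567 to 18.2). Removing 10% of free RNA turned the endothelial COL3A1 direction, so no direction is drawn from it.

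COL4A5, a chain of a more specialised type IV network, was higher in EL in all 3 compared classes. In epithelial cells it was found at 50.5 (EL) and 5.32 CPM (EIS) (9.5-fold higher in EL, 7.57 to 12.1), against 1.79 CPM in EL immune cells. Without the abundant genes the epithelial ratio was 5.72. A COL4A5 UMI was found in 6.46% of EL and 0.805% of EIS epithelial cells thinned to 1000 UMIs (16.5% and 2.31% unthinned). Mesenchymal cells held 246 (EL) and 12.4 CPM (EIS) (19.8-fold higher in EL, 8.3 to 42.6), on 9 EL UMIs, and the CYP1B1 and RORB clusters 233 (EL) and 79.5 CPM (EIS) (2.93-fold higher in EL, 1.09 to 7.16). Endothelial cells held 158 (EL) and 24.3 CPM (EIS) (6.53-fold higher in EL, 3.07 to 13.3). COL4A5 had 0 UMIs in the AQP1-led cluster in both libraries, and the MMRN1-led cluster held 199 (EL) and 88.3 CPM (EIS) (2.26-fold higher in EL, 1.06 to 4.62), so the size of the difference moved with the cluster mix. COL8A1, a network-forming collagen of vessel walls, was found at 24.4 (EL) and 31.1 CPM (EIS) in endothelial cells, with 2 EL UMIs. In epithelial cells it was found at 1.24 (EL) and 0.205 CPM (EIS) (6.07-fold higher in EL, 1.95 to 30.5), on 3 EIS UMIs.

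The transmembrane collagens went opposite ways in epithelium. COL23A1 was found at 83.3 (EL) and 20 CPM (EIS) (4.17-fold higher in EL, 3.7 to 4.71). COL17A1, a collagen of hemidesmosomes, was found at 3.89 (EL) and 11.9 CPM (EIS) (3.05-fold higher in EIS, 2.43 to 3.83). COL17A1 reached 83 CPM in the 106 EIS cells of a cluster led by IGFBP2 and AQP8, and stood at 0.25 CPM in the 843 cells of the SLPI-led cluster. COL23A1 reached 261 CPM in the EL cluster led by JPH4 and 197 CPM in the EIS cluster led by DCLK2. The DCLK2-led cluster was shallow, with a median of 751 UMIs, and 441 of its EIS cells passed no gate. As a whole it held 1921 CPM of epithelial and 1172 CPM of trophoblast-like markers, so its cell type is unclear. Without the abundant genes COL23A1 was 2.51-fold higher in EL and COL17A1 5.07-fold higher in EIS.

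Among the laminin chains, LAMB2, a beta chain, was found at 49 (EL) and 17.8 CPM (EIS) in epithelial cells (2.75-fold higher in EL, 2.42 to 3.15), which is 1.66-fold without the abundant genes. LAMC1, the common gamma chain, was found at 13.4 (EL) and 16.1 CPM (EIS) (1.2-fold higher in EIS, 1.02 to 1.4), and turned to 1.05-fold higher in EL, 0.877 to 1.26, in epithelial clusters. In trophoblast-like cells LAMC1 stood at 79.1 CPM. That exceeded EIS epithelial cells (4.92-fold, 4.23 to 5.72) and immune cells (11.2-fold, 6.72 to 20.1). Trophoblast-like cells without a mesenchymal marker UMI held 92.7 CPM. In endothelial cells LAMC1 was found at 231 (EL) and 227 CPM (EIS) (1.02-fold higher in EL, 0.603 to 1.63), a difference within counting error.

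ITGB1 is the beta chain shared by most matrix-binding integrin pairs. It was found at 182 (EL) and 139.5 CPM (EIS) in epithelial cells (1.3-fold higher in EL, 1.24 to 1.37), and without the abundant genes the ratio was 0.785, so its direction rests on the scaling. Mesenchymal cells held 328 (EL) and 807 CPM (EIS) (2.46-fold higher in EIS, 1.41 to 4.77), within counting error in the CYP1B1 and RORB clusters (1.53-fold higher in EIS, 0.795 to 3.29). Endothelial cells held 670.1 (EL) and 942 CPM (EIS) (1.41-fold higher in EIS, 1.07 to 1.88). Trophoblast-like cells stood at 367 CPM, above EIS epithelial cells (2.63-fold, 2.49 to 2.78), and at 459.7 CPM where no mesenchymal marker UMI was found. ITGB5, a beta partner of ITGAV, was found at 16 (EL) and 23.5 CPM (EIS) in epithelial cells (1.47-fold higher in EIS, 1.28 to 1.68) and at 52.8 CPM in trophoblast-like cells, against 40.1 CPM in EIS immune cells. ITGB3, another partner of ITGAV, was found at 0.189 (EL) and 3.14 CPM (EIS) (16.6-fold higher in EIS, 7.45 to 43.6), on 7 EL UMIs.

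ITGAV, the alpha chain of receptors for ligands such as osteopontin, was found at 66.2 (EL) and 28.4 CPM (EIS) in epithelial cells (2.33-fold higher in EL, 2.1 to 2.59; 1.4-fold without the abundant genes) and at 26.5 CPM in trophoblast-like cells. ITGA2B, the platelet alpha chain, was found at 84.3 (EL) and 28.1 CPM (EIS) (3-fold higher in EL, 2.71 to 3.33; 1.81-fold without the abundant genes). ITGA2B varied little between the EIS classes, from 28.1 CPM in epithelial to 51.5 CPM in immune cells. ITGA5, the alpha chain of the main fibronectin receptor, was found at 109.7 (EL) and 209 CPM (EIS) in endothelial cells (1.9-fold higher in EIS, 0.984 to 4.22). In epithelial cells ITGA5 was 9.66-fold higher in EIS, 5.6 to 17.6, and 2.03-fold higher in EIS, 0.85 to 4.65, in epithelial clusters. ITGA10, a collagen-binding alpha chain, was found at 4.72 (EL) and 1.84 CPM (EIS) (2.57-fold higher in EL, 1.7 to 4; 1.54-fold without the abundant genes), against 5.38 (EL) and 1.89 CPM (EIS) in immune cells. In the TPPP3-led cluster it did not differ beyond counting error, at 4.02 (EL) and 4.03 CPM (EIS) (a ratio of 0.996, 0.425 to 2.7). ITGAM, an alpha chain of myeloid cells, stood at 68.1 and 65.6 CPM in EL and EIS immune cells and at 7.12 CPM in trophoblast-like cells. COL6A6 had 0 UMIs in both libraries, COL10A1 and COL25A1 had 1 UMI in all, ITGA7 had 12 and 2 UMIs in EL and EIS, and ITGB1BP2 had 17 and 9.

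Most epithelial clusters held cells of a single library. The cluster led by TPPP3 and DYNLRB2, genes of ciliated cells, held 1204 EL and 254 EIS epithelial cells. There COL4A5 was found at 10 (EL) and 2.3 CPM (EIS) (4.36-fold higher in EL, 1.63 to 16.4) and LAMB2 at 40.2 (EL) and 21.9 CPM (EIS) (1.83-fold higher in EL, 1.3 to 2.65), both in the direction of the whole class. COL23A1 kept its direction too, at 9.18 (EL) and 0.576 CPM (EIS) (15.9-fold higher in EL, 2.76 to 639), on 1 EIS UMI. ITGAV, at 30 (EL) and 32.3 CPM (EIS) (1.08-fold higher in EIS, 0.787 to 1.45), did not differ beyond counting error. COL17A1 turned direction, at 9.75 (EL) and 4.61 CPM (EIS) (2.12-fold higher in EL, 1.02 to 5.1). COL3A1 was found there at 1 (EL) and 81.8 CPM (EIS) (81.5-fold higher in EIS, 38.5 to 206), below its level in EIS immune cells. Outside that cluster COL4A5 ranged from 138 CPM in the JPH4-led cluster of EL to 1.63 CPM in the SLPI-led cluster of EIS.

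**Figure D4:**
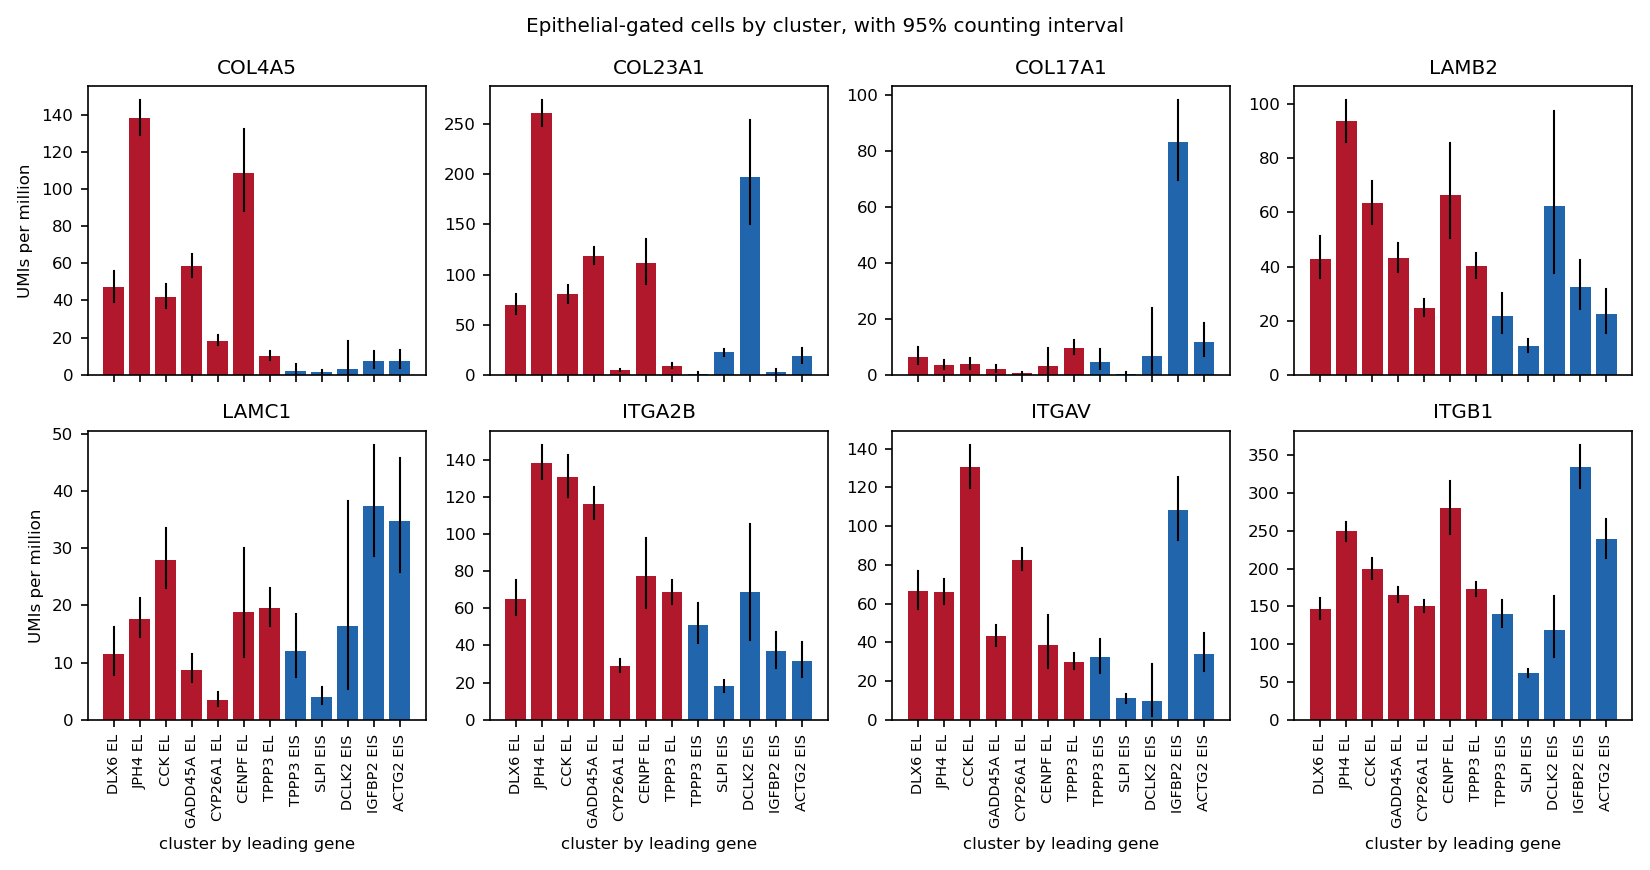
CPM of 8 members in epithelial-gated cells by cluster, with 95% counting intervals; red bars are EL, blue bars EIS, and each cluster carries its first leading gene. LAMB2 in the TPPP3 cluster stands at 40.2 (EL) and 21.9 CPM (EIS), while COL17A1 peaks at 83 CPM in the IGFBP2 cluster of EIS.

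Genes that process and cross-link collagen were followed in the same classes, 18 of the 27 listed being measured. In mesenchymal cells 17 had at least 20 UMIs, and 4 of these allowed no ratio. Of the other 13, 0 were higher in EL and 4 in EIS, against 38.5% and 6.35% of all genes measured in the class. Their median was -0.45 on the log2 scale, against 0.67 for all genes. With 50 UMIs asked of a gene, the 38.5% and 0.67 of all genes fell to 26.7% and 0.33. LOX, which cross-links collagen, was found at 82 (EL) and 730.2 CPM (EIS) (8.9-fold higher in EIS, 3.04 to 43.2), on 3 EL UMIs, and P4HB, a subunit of prolyl hydroxylase, at 219 (EL) and 705 CPM (EIS) (3.22-fold higher in EIS, 1.63 to 7.48). Of the 14 basement membrane partners 5 were measured. In epithelial cells 1 of them was higher in EL and 4 in EIS (42.6% and 9.18% of all genes), with a median of -2.98 on the log2 scale. These counts cover the whole gated class, in which 669 of 2550 EIS cells lay in mesenchymal clusters. SPARC, a collagen-binding protein, was found at 2297 (EL) and 4479 CPM (EIS) in mesenchymal cells (1.95-fold higher in EIS, 1.57 to 2.45). In endothelial cells it was found at 36.6 (EL) and 630.0 CPM (EIS) (17.2-fold higher in EIS, 5.87 to 83.8), on 3 EL UMIs. The part of free RNA in that endothelial level was not tested. The LOX, P4HB and SPARC ratios cover whole classes, whose cluster mix differed between libraries, and are not given within clusters. NPNT, an integrin ligand of basement membranes, was found at 148 (EL) and 9.07 CPM (EIS) in epithelial cells (16.3-fold higher in EL, 13.7 to 19.5). That ratio is on the scale that keeps the abundant genes.

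Of 17 other integrin ligands measured in epithelial cells, 5 were higher in EL and 9 in EIS, against 42.6% and 9.18% of all genes, with a median of -1.28 against 0.86 for all genes. SPP1, which encodes osteopontin, was found at 0.864 (EL) and 10112 CPM (EIS) in epithelial cells and at 143 (EL) and 4238 CPM (EIS) in immune cells. THBS1, a thrombospondin, was found at 3.62 (EL) and 404 CPM (EIS) in epithelial cells. It was the first leading gene of a cluster of 34 deep EIS cells (median 19245.5 UMIs), and its level is not given by cluster here. Among 12 integrin adaptors 4 were higher in EL and 1 in EIS, beside the same shares of all genes, and the list's median of 0.61 turned sign without the abundant genes. FERMT2, a kindlin that helps to activate integrins, was 3.21-fold higher in EL, 2.93 to 3.53, in epithelial cells, and LIMS1 was 4.42-fold higher in EL, 3.61 to 5.37, in endothelial cells. Of 8 other matrix receptors 2 were higher in EL in epithelial cells and 0 in EIS, beside the same shares of all genes, and the list's median of 0.33 turned sign without the abundant genes. CD9, a tetraspanin, was found at 2878 (EL) and 588 CPM (EIS) (4.9-fold higher in EL, 4.79 to 5.01), and BCAM, a laminin receptor, was 3.88-fold higher in EIS, 1.86 to 9.73, in endothelial cells. The epithelial counts and ratios of these lists, FERMT2 and CD9 included, are on the scale that keeps the abundant genes. They cover the whole gated class, in which 669 of 2550 EIS cells lay in mesenchymal clusters. The endothelial ratios of LIMS1 and BCAM also cover the whole class, whose cluster mix differed between libraries.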

How the data were processed

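Values were deposited by the authors as UMI counts that had not been normalized, one matrix per library, per the file headers. Cell Ranger 2.1.1 is named in the submitters' processing notes and cellranger 6.1.0 in the matrix header; the genome build is not given in the sources used here. Barcodes with at least 500 UMIs and 300 genes were kept. Scrublet's own cutoff found 0 EL and 1 EIS doublets, so the top 0.8% of its scores for every 1000 barcodes was taken out instead. The libraries shared 27 barcodes.

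A cell entered a class with at least 2 distinct markers holding at least 0.1% of its UMIs (epithelial) or 0.3% (other classes), if it passed no other class; trophoblast-like cells could also pass the epithelial limit. The members and lists were chosen with earlier results of these data known. The gate limits were set after the cells had been inspected, with summed collagen levels per cluster already seen, and after 3 other sets of limits had been tried; all 3 are given as alternatives. A stricter class, which also asks for a cluster of the same class, was added after member levels per cluster had been seen. It was for a time used as the main class. The planned gate was then restored, and stricter values stand beside several epithelial results.

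Clusters came from 2000 variable genes without members, 30 components, 15 neighbours and resolution 1.0 (scanpy 1.11.5, leidenalg 0.10.2). UMIs were summed per class and library and scaled to 1000000 (CPM). Levels carry exact Poisson intervals, ratios exact conditional intervals and shares Clopper-Pearson intervals, all at 95% (scipy 1.17.1). A library at 0 UMIs gives a bound against 3 UMIs. Members were named at 50 CPM and 20 UMIs in a class, or for the 5 largest or smallest ratios of a class; others are named where they complete a role, and were chosen after their values were seen. From the related lists a choice was made among the genes with at least 100 CPM and the largest ratios. TMM factors came from edgeR 4.0.16, for scaling only. The values of 1 member are not reported here; it is counted among the members. The ratio code was tested on simulated counts.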

Additional observations from a re-analysis of the deposited data

Results flagged for a closer look

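For 2 members the direction differed between classes, each with a counting interval on its own side of equality; the difference between classes was not tested, with 1 library per group. COL6A1 stood at 0.63 on the log2 scale of EL over EIS in mesenchymal cells and at -5.76 in epithelial cells. ITGB1 stood at 0.38 in epithelial cells, -1.30 in mesenchymal cells and -0.49 in endothelial cells. Both epithelial or mesenchymal signs depend on a setting: ITGB1 in epithelium fell below 0 without the abundant genes, and COL6A1 in mesenchymal cells with TMM factors. In the CYP1B1 and RORB clusters COL6A1 turned direction, and the mesenchymal interval of ITGB1 included equality.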

How the results depend on the processing

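No paired analysis was possible because each group is 1 library, and for the same reason no library could be left out in turn. Of 472 member ratios recomputed under the alternatives listed at the outset, 383 kept their value within counting error, 81 moved and 8 turned direction; the cause was not tested. Alternatives within single clusters, with gate and cluster together, on cells without marker UMIs or over 2000 UMIs, and on other gate limits were chosen after seeing the data.

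Class sizes depend on the gate. EL mesenchymal cells numbered 10 with 3 markers, 52 by clusters and 7 at 1000 UMIs, and EIS ones 505 without a limit on other classes, 1814 by clusters and 491 with every limit at 0.4%. EIS endothelial cells numbered 419 by clusters and EL ones 22 at 1000 UMIs. EIS epithelial cells numbered 1619 with gate and cluster, 1689 at 0.2% and 937 at 0.4%.

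Members led by epithelial cells in EL numbered 3 without the limit on other classes, 2 by clusters and 2 at 0.4%, and in EIS 1 at 0.4%. Those led by endothelial cells in EIS numbered 4 without that limit, 5 at 1000 UMIs, 4 at 0.4% and 4 after removing 10% free RNA, and in EL 2 at 0.2% and 2 at 0.15%. Trophoblast-like cells led for 1 by clusters.

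Members higher in EL in mesenchymal cells numbered 5 by clusters, 1 with TMM, 1 at 50 UMIs per gene, 5 at 1 UMI and 1 at 4-fold, and those higher in EIS 2 by clusters, 10 with TMM and 1 at 4-fold. In endothelial cells 2 were higher in EL by clusters and 0 at 50 UMIs, and 2 were higher in EIS after free RNA removal and 2 at 4-fold. In epithelial cells 3 were higher in EL at 0.4%, 3 without abundant genes, 3 with TMM and 3 at 4-fold. The epithelial median log2 was -1.36 at 0.4%, -1.66 without abundant genes, -1.70 with TMM, -1.31 at 50 UMIs and -0.41 at 1 UMI, and the mesenchymal one -1.44 with TMM.

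These log2 values turned sign. In epithelial cells ITGB1 turned to -0.37 at 0.4%, -0.35 without abundant genes and -0.39 with TMM. Over the same settings the median turned to -0.063, -0.32 and -0.36 for collagen processing genes and to -0.16, -0.40 and -0.44 for other matrix receptors. For integrin adaptors it turned to -0.13 without abundant genes and -0.17 with TMM. LAMC1 turned to 0.033 by clusters, 0.071 with gate and cluster and 0.17 after free RNA removal. That removal also turned ITGAM to 0.36, other integrin ligands to 0.095 and endothelial COL3A1 to 1.49. In mesenchymal cells COL1A1 turned to 0.11 by clusters and COL6A1 to -0.35 with TMM. In the CYP1B1 and RORB clusters COL6A1 turned to -0.36, COL3A1 to 0.28 and COL5A2 to 1.2. In the TPPP3-led cluster COL17A1 turned to 1.08, LAMC1 to 0.69, ITGB5 to 0.26, COL11A1 to -0.49, ITGAV to -0.11, ITGA10 to -0.0061 and COL4A2 to 0.41.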
